A study of Homo sapiens with 9 samples.

Results

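Interferon-stimulated genes are the genes whose transcription rises when a cell responds to interferon, and 39 of them were followed here in MCF10A cells in which the gene RND1 was targeted by short hairpin RNA. The 39 were taken by gene symbol from a list that was drawn up with earlier results of these data known. A named probe was on the array for 37 of them, all but STAT2 and USP18, and 30 of the 37 were measured, out of 8931 genes measured in all. A gene counted as measured when its probe had a detection p under 0.01, the array software's test of a probe against the negative controls, on at least 3 of the 9 arrays.

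MCF10A is an established line of non-tumorigenic human mammary epithelial cells with a basal character. The 3 groups were cells infected with lentivirus carrying the RND1 hairpin sh-35, cells infected with the RND1 hairpin sh-34, and cells infected with a scramble control. All of them were selected with puromycin, each group had 3 samples, and total RNA was read on Illumina bead arrays. Every cell therefore carried a lentivirus, a hairpin and drug selection, and uninfected cells were not analysed here. The labels give neither the time after infection nor the origin of the replicates. If the 3 samples of a group were drawn from 1 culture, the p-values reflect technical spread alone.

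Interferons are secreted proteins. Type I and type III interferons bind their receptors on the cell surface, the receptor-bound kinases JAK1 and TYK2 phosphorylate STAT proteins, and a complex of phosphorylated STATs with IRF9 enters the nucleus and binds a short DNA element, the interferon-stimulated response element (ISRE). Type II interferon acts mainly through a STAT dimer and a different palindromic element, the gamma-activated site (GAS). Epithelial cells hold sensors of double-stranded RNA and of DNA, whose signals through IRF3 and related factors induce the interferons themselves and can also switch on some of the same genes directly. The induced genes encode antiviral proteins, the sensors and transcription factors of the pathway, and its inhibitors.

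The knockdown could not be checked, because the RND1 probe gave signals of 27.7 to 49.6 and exceeded background on 0 of 9 arrays. The arrays had 11473 to 12902 probes above background and median signals of 46.64 to 53.37, and log2 signals correlated by 0.9925 to 0.9941 within groups and by 0.9599 to 0.9733 between groups. All 5 basal epithelial markers with a named probe (KRT5, KRT14, CDH3, LAMB3 and ITGB4) were measured. Of the luminal markers, ESR1 and PGR were above background on no array, while FOXA1 was above it on 0 sh-35, 2 sh-34 and 3 scramble arrays. FOXA1 was at least 1.92-fold lower with sh-35 than with scramble (limma adjusted p = 6.69e-05) and fell by 0.77 with sh-34 (adjusted p = 0.0023). The summed signal of the basal markers was 27181 to 29476 on the sh-35 arrays and 26615 to 28448 on the sh-34 arrays, against 37861 to 43719 on the scramble arrays. Not every basal marker fell. ITGB4 was higher with sh-34 by 0.41 (adjusted p = 0.00741), and KRT5 did not pass with sh-35 (-0.04, adjusted p = 0.68). The other basal markers measured were lower with each hairpin. Leukocyte genes PTPRC, CD3E, CD53, ITGAM and LYZ were above background on no array. The plasmacytoid dendritic cell genes LILRA4, CLEC4C and IL3RA and the endothelial genes CDH5, KDR and VWF were likewise never above background. Other genes of these lists, CD68, LAPTM5, TCF4 and PECAM1, were measured, and their values are given further below.

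Of the 30 measured interferon-stimulated genes, 24 were higher and 2 lower with sh-35 than with scramble, and 4 did not pass the test. A gene was called where limma's adjusted p was under 0.05 over all 8931 genes. Of all genes, 41.8% were called in that comparison, 20.4% higher and 21.4% lower, beside 80% and 6.67% of the measured interferon-stimulated genes. The median log2 change of the 30 was 0.60, beside -0.02 over all genes, and their changes ran from -0.31 to 2.78. With sh-34, 12 of the 30 were higher and 2 lower than with scramble and 16 did not pass, where 37.5% of all genes were called, 19% higher and 18.5% lower. The median log2 change with sh-34 was 0.18, beside 0.02 over all genes, with a range of -1.09 to 1.01. That median was 0.11 without sh-34 replicate 3, and 0.07 over the 23 members above background on all 9 arrays.

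The sh-35 arrays also differed from the sh-34 arrays directly. Here 19 of the 30 were higher and 2 lower with sh-35, and 9 did not pass, where 42.7% of all genes were called, 20.7% higher and 22% lower. The median log2 difference was 0.51, beside -0.03 over all genes. The arrays did not overlap, with sh-35 higher, for 24 members against scramble and for 19 against sh-34, beside 25.3% and 25.1% of all genes; sh-34 arrays lay wholly above scramble arrays for 12 members, beside 26.1% of all genes. These comparisons share samples, so each stands on its own and none supports another. IFI44L, OAS1 and MX1 were above background on no scramble array, and IFI44L passed the filter through the sh-35 arrays alone. Among the 27 members above background on at least 1 scramble array, 21 were higher and 2 lower with sh-35, and 10 were higher and 2 lower with sh-34.

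**Figure D1:**
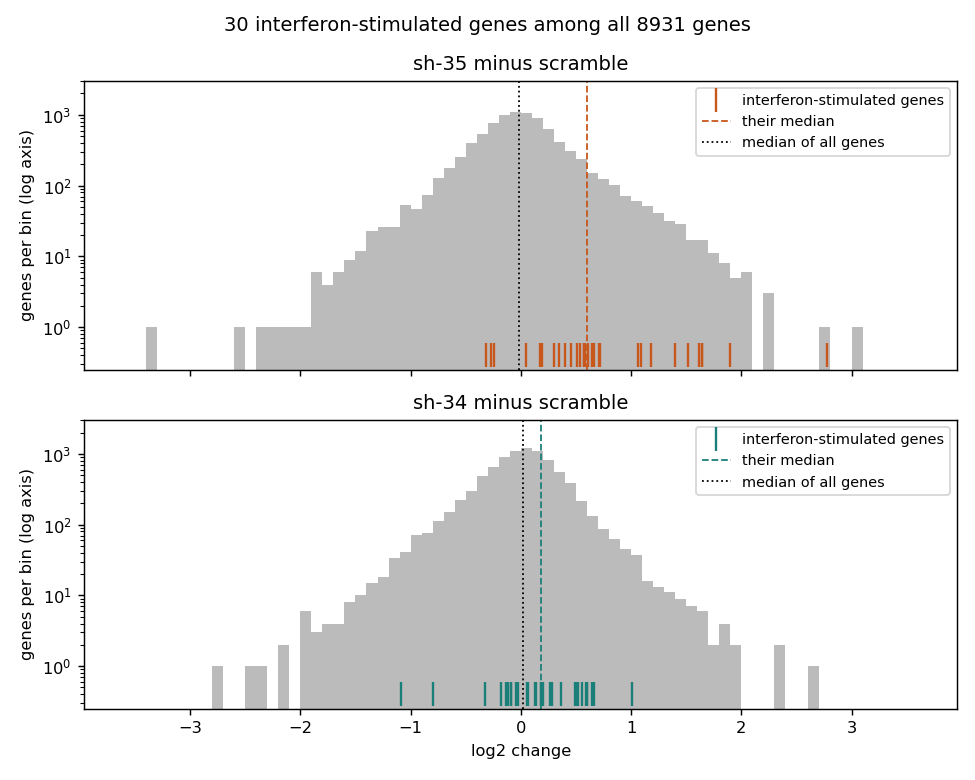
Histograms of the log2 change of all 8931 measured genes against scramble, sh-35 and sh-34 in separate panels, with the number of genes on a log axis, a tick for each of the 30 measured interferon-stimulated genes and a line at each median. The members' median lies at 0.60 for sh-35 and at 0.18 for sh-34, while the medians of all genes lie at -0.02 and 0.02.

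Promoter sequence was examined for 32 of the 39 genes, those with a RefSeq promoter window (build GRCh38.p14, from 250 bases before to 50 bases after the annotated start). IFIT2, IRF7, MX2, OAS2, OASL, TRIM22 and USP18 were not examined. The ISRE core was searched as GAAANNGAAA on both strands, which reads TTTCNNTTTC when it lies on the opposite strand, and the GAS as TTCNNNGAA, which is its own reverse complement. An ISRE core was found in 21 of the 32 genes (65.6%), beside 1195 of all 27305 genes with a window (4.38%) and 3.57% of all windows. A GAS was found in 9 of the 32 (28.1%), beside 9.38% of all genes and 7.66% of all windows. Because these genes are known for their response to interferon, the share with an ISRE core describes the list and is not a result of the knockdown.

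The windows of 7 members that differed between groups, picked after their values were seen, are shown with ISRE core matches in capitals, so that the number and spacing of the matches can be read beside the array values. IFI44L (chr1:78620198-78620497, plus strand) holds matches at -164 and -73 from the annotated start, within a repeated stretch. In IFIT1 (chr10:89392373-89392672, plus strand) the matches begin at -116 and -103, and in the downstream window of IFIT3 (chr10:89332279-89332578, plus strand) at -94 and -51. IFI44 (upstream window, chr1:78649539-78649838, plus strand) has 1 match, at -18, and OAS1 (chr12:112906712-112907011, plus strand) has 0 matches to this pattern. The OAS1 window does hold gaaacgaaa, in which the GAAA repeats lie 1 base apart. The pattern cannot match that spacing, so 0 does not show that OAS1 lacks an ISRE. In the upstream window of IFI27 (chr14:94110486-94110785, plus strand) they begin at -108 and -95, on opposite strands. IFI6 (chr1:27672143-27672442, minus strand) has matches at -156, -115 and -93.
IFI44L: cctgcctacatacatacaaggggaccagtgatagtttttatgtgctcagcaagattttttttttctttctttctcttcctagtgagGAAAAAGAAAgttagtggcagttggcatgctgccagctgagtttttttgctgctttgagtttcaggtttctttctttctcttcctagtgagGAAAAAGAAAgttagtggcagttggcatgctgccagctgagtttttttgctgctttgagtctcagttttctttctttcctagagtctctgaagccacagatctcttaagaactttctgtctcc
IFIT1: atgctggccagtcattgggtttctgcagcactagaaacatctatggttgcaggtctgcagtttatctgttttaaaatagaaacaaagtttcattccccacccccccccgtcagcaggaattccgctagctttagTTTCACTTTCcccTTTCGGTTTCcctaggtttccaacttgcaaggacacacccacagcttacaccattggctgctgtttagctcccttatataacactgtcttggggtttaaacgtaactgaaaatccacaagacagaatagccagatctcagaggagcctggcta
IFIT3: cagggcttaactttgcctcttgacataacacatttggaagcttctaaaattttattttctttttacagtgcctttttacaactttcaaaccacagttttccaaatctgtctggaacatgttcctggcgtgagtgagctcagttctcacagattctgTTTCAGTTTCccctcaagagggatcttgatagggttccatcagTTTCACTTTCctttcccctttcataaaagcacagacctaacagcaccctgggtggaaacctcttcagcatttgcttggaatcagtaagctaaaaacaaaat
IFI44: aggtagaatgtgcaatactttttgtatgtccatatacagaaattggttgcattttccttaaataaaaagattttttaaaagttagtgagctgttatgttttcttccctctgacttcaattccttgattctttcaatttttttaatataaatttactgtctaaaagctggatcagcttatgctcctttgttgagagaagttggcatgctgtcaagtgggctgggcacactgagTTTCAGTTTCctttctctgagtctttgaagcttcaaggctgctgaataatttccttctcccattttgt
OAS1: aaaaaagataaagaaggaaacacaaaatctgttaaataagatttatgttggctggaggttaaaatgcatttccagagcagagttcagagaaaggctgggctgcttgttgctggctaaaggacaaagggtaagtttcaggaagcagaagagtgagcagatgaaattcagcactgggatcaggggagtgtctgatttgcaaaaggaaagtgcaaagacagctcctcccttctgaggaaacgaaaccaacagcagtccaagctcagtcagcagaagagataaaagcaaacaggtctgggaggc
IFI27: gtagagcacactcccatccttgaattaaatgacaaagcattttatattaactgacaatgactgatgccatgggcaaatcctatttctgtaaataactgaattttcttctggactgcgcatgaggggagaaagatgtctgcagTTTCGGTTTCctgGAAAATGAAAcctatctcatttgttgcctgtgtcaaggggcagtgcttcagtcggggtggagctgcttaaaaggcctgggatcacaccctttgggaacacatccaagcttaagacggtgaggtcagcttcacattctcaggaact
IFI6: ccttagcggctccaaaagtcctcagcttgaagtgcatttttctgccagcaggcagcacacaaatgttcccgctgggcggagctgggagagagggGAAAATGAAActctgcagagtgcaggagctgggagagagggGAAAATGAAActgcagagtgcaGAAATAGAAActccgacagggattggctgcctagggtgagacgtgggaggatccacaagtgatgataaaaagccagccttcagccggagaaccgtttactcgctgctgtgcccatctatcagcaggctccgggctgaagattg

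Matches were found among called and uncalled members. Of the members called higher with sh-35, 15 of the 21 with a window held an ISRE core and 7 of 21 a GAS. Both members called lower with sh-35, ISG20 and PARP12, held an ISRE core too, as did 2 of the 3 not called. With sh-34, 8 of the 10 windowed members called higher, 1 of the 1 called lower and 10 of the 15 not called held one. IFI27 and IFI6, whose windows are shown above, were both higher with sh-35 than with sh-34. A match in these letters is no evidence that a factor binds there.

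**Figure D2:**
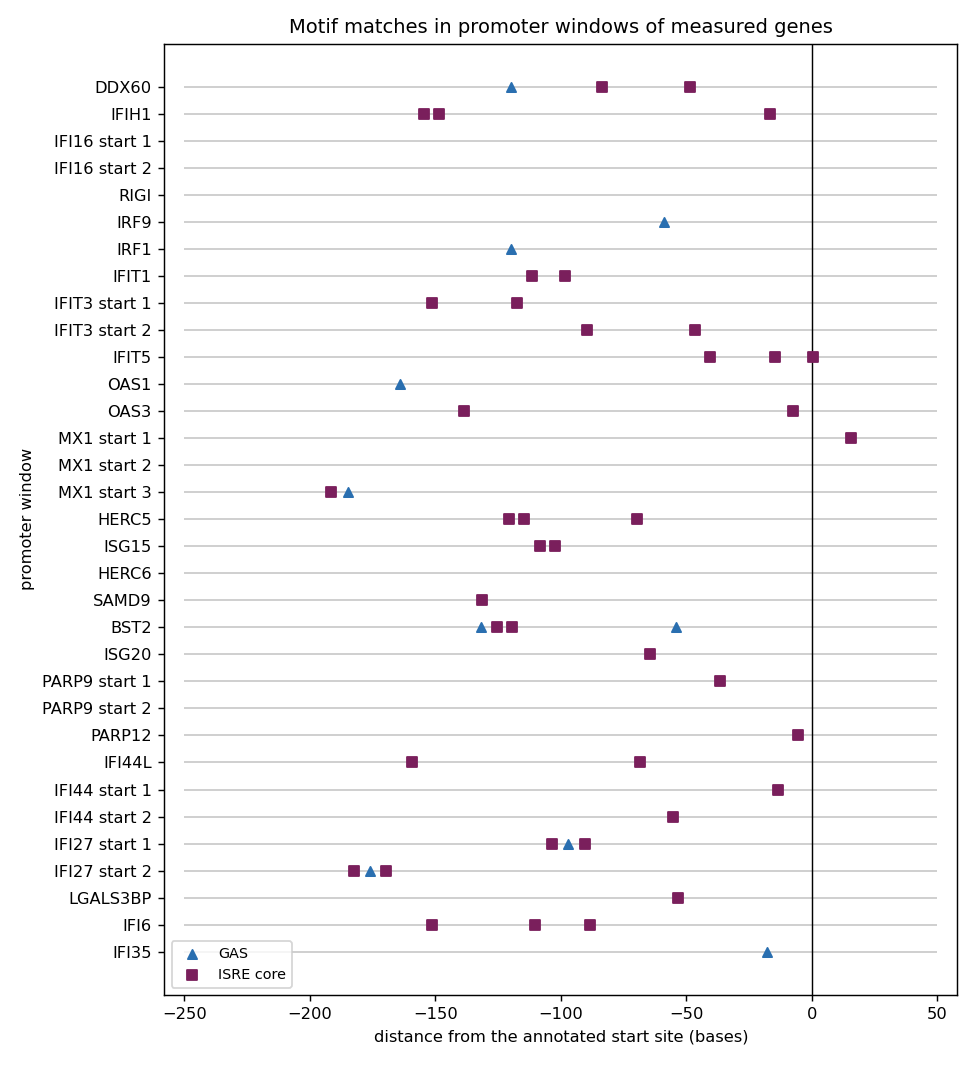
Positions of ISRE core and GAS matches in the promoter windows of measured interferon-stimulated genes, on an axis in bases from the annotated transcription start with a row for each window. IFI44L has 2 ISRE core matches and IFI6 has 3.

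The signals that would start the response were mostly not measurable. Of 21 interferon ligand genes, 20 were above background on no array, among them IFNB1, IFNK, IFNE, IFNG, IFNL1, IFNL2 and IFNL3. IFNA8 was measured and passed no test, with log2 changes of 0.19 for sh-35 and -0.03 for sh-34 against scramble. Of 6 receptor genes, 5 were measured. With sh-35, 2 were higher and 0 lower (40% and 0%, beside 20.4% and 21.4% of all genes). With sh-34, 1 was higher and 1 lower (20% and 20%, beside 19% and 18.5%). Both chains of the type II receptor were higher with sh-35 than with scramble, IFNGR1 by 0.44 (adjusted p = 0.00128) and IFNGR2 by 0.41 (adjusted p = 0.00532). IFNGR2 did not pass in fits to series matrix values (adjusted p = 0.0619) or median-scaled signals (0.0839). IFNAR1, a chain of the type I receptor, was higher with sh-35 than with sh-34 by 0.68 (adjusted p = 0.00276). Against scramble it did not pass with sh-35 (0.29, adjusted p = 0.135) and fell by 0.40 with sh-34 (adjusted p = 0.0496). That sh-34 call was lost with a replicate block (0.0694) and with no filter on dim probes (0.119). IL10RB, a chain shared by the type III interferon and interleukin-10 receptors, was higher with sh-34 than with scramble by 0.46 (adjusted p = 0.00294).

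JAK1 and TYK2 are the kinases bound to the receptors. JAK1 was higher than with scramble by 0.35 with sh-35 (adjusted p = 0.00871) and by 0.29 with sh-34 (adjusted p = 0.0238), and TYK2 by 0.29 (adjusted p = 0.0121) and by 0.27 (adjusted p = 0.0198) with the same hairpins. With median scaling and with series matrix values, TYK2 passed for neither hairpin (adjusted p = 0.141 to 0.239) and JAK1 did not pass for sh-34 (0.127 and 0.174).

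Of the adaptors of the sensors, TICAM1, MAVS and MYD88 were lower with each hairpin, and STING1, the adaptor of the DNA sensor cGAS, passed no test at 0.21 with sh-35 (adjusted p = 0.077) and 0.14 with sh-34 (adjusted p = 0.253). TICAM1, the adaptor of the RNA receptor TLR3, had log2 signals of 11.02, 11.02 and 10.85 with sh-35 and 10.72, 10.70 and 10.72 with sh-34, against 11.44, 11.46 and 11.34 with scramble. It fell by 0.45 with sh-35 (adjusted p = 0.000755) and by 0.70 with sh-34 (adjusted p = 4.74e-05), and its groups did not overlap. MAVS, the mitochondrial adaptor of the cytosolic RNA sensors, was at least 1.55-fold lower with sh-35 than with scramble (limma adjusted p = 0.00288), being above background on 0 sh-35 and 3 scramble arrays. With sh-34, where 1 array was above background, it fell by 1.12 (adjusted p = 0.000511). MYD88, the adaptor of most Toll-like receptors, fell by 0.39 with sh-35 (adjusted p = 0.0355) and by 0.37 with sh-34 (adjusted p = 0.0456). IRF3, which the sensors activate, fell by 0.45 with sh-35 (adjusted p = 0.00995). Its kinase IKBKE was higher by 0.52 with sh-35 (adjusted p = 0.00133), and the related kinase TBK1 by 0.31 with sh-34 (adjusted p = 0.00501). TBK1 did not pass in fits to series matrix values (0.16) or median-scaled signals (0.0984). Of the 10 transducers measured, 3 were higher and 4 lower with sh-35 (30% and 40%, beside 20.4% and 21.4% of all genes). With sh-34, 4 were higher and 3 lower (40% and 30%, beside 19% and 18.5%).

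The cytosolic RNA sensors among the interferon-stimulated genes did not move as one. IFIH1, which binds long double-stranded RNA, had log2 signals of 8.69, 9.06 and 8.76 with sh-35 and 8.97, 8.88 and 8.85 with sh-34, against 8.28, 8.25 and 8.25 with scramble. All 6 hairpin arrays lay above the 3 scramble arrays. Its log2 change was 0.57 (SE 0.10, adjusted p = 0.000685) with sh-35 and 0.64 (SE 0.10, adjusted p = 0.000434) with sh-34. The hairpins did not differ beyond the spread, with a difference of -0.07 and a 95% interval of -0.28 to 0.15.

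RIGI, formerly named DDX58, senses short double-stranded RNA with a terminal phosphate. Its log2 signals were 6.09, 6.60 and 6.41 with sh-35 and 6.92, 6.64 and 7.07 with sh-34, against 6.61, 6.80 and 6.43 with scramble. It was above background on 0 sh-35, 3 sh-34 and 1 scramble arrays. RIGI passed no test against scramble and was at least 1.20-fold lower with sh-35 than with sh-34 (limma adjusted p = 0.0159). DDX60, a helicase that assists the RNA sensors, had log2 signals of 8.38, 8.72 and 8.26 with sh-35 and 7.38, 7.52 and 7.73 with sh-34, against 7.47, 6.95 and 7.67 with scramble. The sh-35 arrays stood above all others, by 1.09 against scramble (adjusted p = 0.000465) and by 0.91 against sh-34 (adjusted p = 0.00158), while sh-34 and scramble arrays overlapped.

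IFI16, a DNA sensor of the nucleus and cytosol, had log2 signals of 11.06, 11.18 and 11.16 with sh-35 and 11.18, 11.16 and 11.17 with sh-34, against 10.80, 10.36 and 10.70 with scramble. It was higher than scramble by 0.51 with sh-35 (adjusted p = 0.00237) and by 0.55 with sh-34 (adjusted p = 0.00188). The hairpins differed by -0.04, with an interval of -0.27 to 0.19. Outside the list, the endosomal RNA receptor TLR3 had log2 signals of 8.10, 7.99 and 8.13 with sh-35 and 7.65, 7.68 and 7.56 with sh-34, against 7.09, 6.89 and 7.36 with scramble. Its log2 change was 0.96 with sh-35 (adjusted p = 3.79e-05) and 0.52 with sh-34 (adjusted p = 0.00379).

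Of the transcription factors among the listed members, 2 of the 3 measured were higher with sh-35. IRF9, the DNA-binding partner of the STATs at the ISRE, had log2 signals of 10.37, 10.31 and 10.41 with sh-35 and 9.68, 9.81 and 10.00 with sh-34, against 9.58, 9.77 and 9.59 with scramble. IRF1, an early factor induced by type II interferon, had 10.03, 9.95 and 9.87 with sh-35 and 9.48, 9.30 and 9.55 with sh-34, against 9.40, 9.37 and 9.37 with scramble. For both genes every sh-35 array lay above every other array, while sh-34 and scramble arrays overlapped. IRF9 was higher with sh-35 by 0.72 against scramble (adjusted p = 0.000119) and by 0.53 against sh-34 (adjusted p = 0.000952), and IRF1 by 0.57 (adjusted p = 0.000249) and 0.51 (adjusted p = 0.00059). IRF7, which drives the later wave of type I interferon, passed no test, with changes of 0.17 for sh-35 and -0.09 for sh-34 against scramble. Outside the list, IRF3 fell with sh-35, as given above. STAT3 changed by -0.16 with sh-35 (adjusted p = 0.169) and by 0.35 with sh-34 (adjusted p = 0.00896), and sh-35 minus sh-34 was -0.51 (adjusted p = 0.000713). With median scaling the STAT3 sh-34 call was lost (0.0683) and the sh-35 change passed at -0.27 (0.043).

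The IFIT genes encode tetratricopeptide-repeat proteins that bind viral RNA, and 3 of the 4 measured were higher with sh-35. IFIT1, which recognises RNA with an incompletely methylated cap, had log2 signals of 8.67, 9.0 and 8.84 with sh-35 and 7.38, 7.55 and 7.89 with sh-34, against 6.91, 6.81 and 7.12 with scramble. The 3 groups did not overlap and stood in that order. The log2 change was 1.89 (SE 0.14, adjusted p = 1.18e-06) with sh-35 and 0.66 (SE 0.14, adjusted p = 0.00286) with sh-34, and the hairpins differed by 1.23 (adjusted p = 2.96e-05). IFIT2, a partner of IFIT1 in the same protein complex, had log2 signals of 9.49, 9.40 and 9.17 with sh-35 and 8.75, 8.85 and 8.95 with sh-34, against 7.93, 7.65 and 7.95 with scramble. It too had 3 groups without overlap, with changes of 1.51 for sh-35 (adjusted p = 1.28e-06) and 1.01 for sh-34 (adjusted p = 3.93e-05). Of the 358 probes in the authors' deposited table, 1 belongs to a listed gene, and it is IFIT2, with the authors' ratios of 2.72 for sh-35 and 1.86 for sh-34 against scramble.

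IFIT3, which stabilises IFIT1 on RNA, differed between the hairpins. Its log2 signals were 8.95, 8.86 and 9.05 with sh-35 and 7.26, 7.31 and 6.91 with sh-34, against 7.20, 7.24 and 7.56 with scramble. The sh-34 and scramble arrays overlapped, and every sh-35 array was above them. It was higher with sh-35 by 1.62 against scramble (SE 0.13, adjusted p = 2.13e-06) and by 1.79 against sh-34 (adjusted p = 1.22e-06). A second, dimmer IFIT3 probe gave 1.49 and 1.54 for the same comparisons (adjusted p = 6.75e-05 and 5.72e-05). IFIT5, which binds RNA with a triphosphate end, passed no test, at 0.19 with sh-35 and 0.13 with sh-34.

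**Figure D3:**
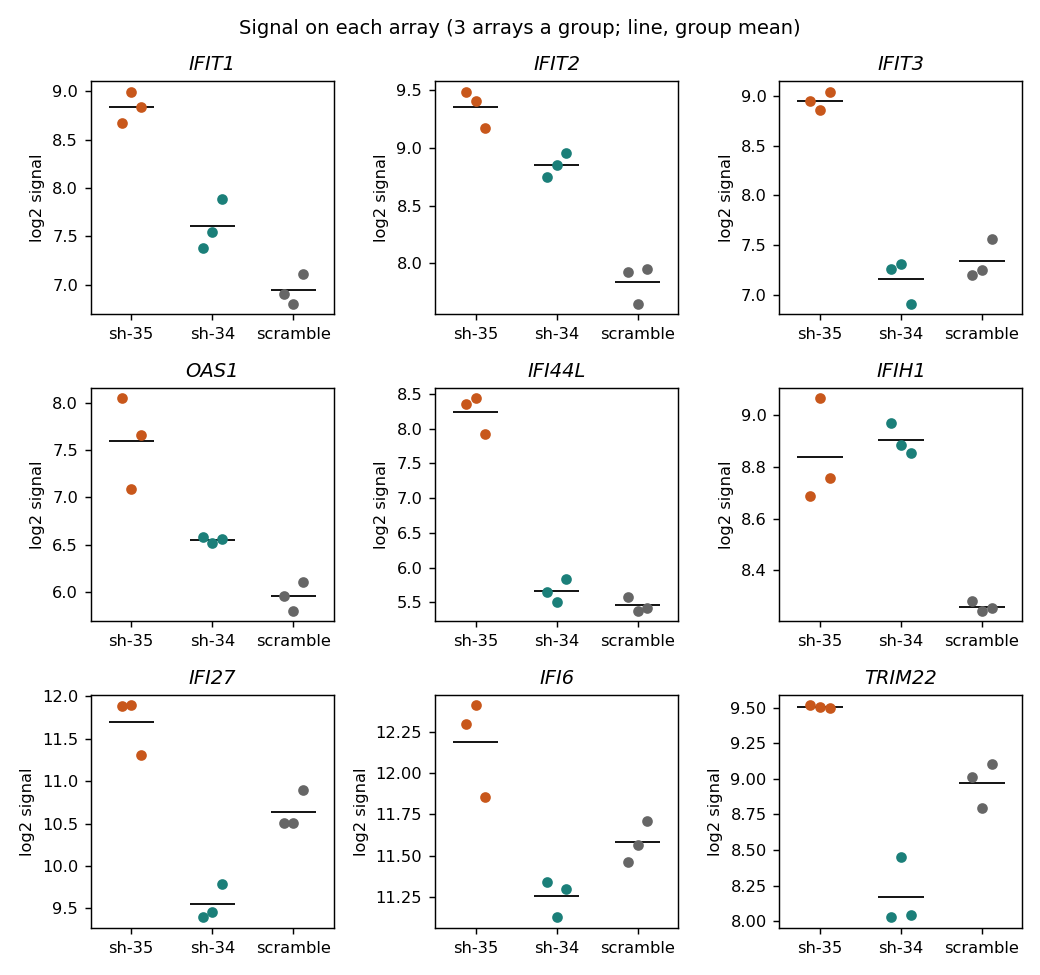
Background-corrected, quantile-normalised log2 signal on each of the 9 arrays for IFIT1, IFIT2, IFIT3, OAS1, IFI44L, IFIH1, IFI27, IFI6 and TRIM22, with sh-35, sh-34 and scramble from left to right, a point for each array and a bar at each group mean. IFIT1 and IFIT2 step down across the 3 groups, and IFI27 and TRIM22 are lowest with sh-34.

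The OAS genes encode synthetases that make 2'-5' oligoadenylate in the presence of double-stranded RNA and so activate the nuclease RNase L. OAS1, OAS2 and OAS3 were all higher with sh-35. OAS1 had log2 signals of 8.05, 7.08 and 7.66 with sh-35 and 6.58, 6.52 and 6.56 with sh-34, against 5.95, 5.80 and 6.10 with scramble, and was above background on 3, 1 and 0 of the arrays of those groups. It was at least 1.94-fold higher with sh-35 than with scramble (limma adjusted p = 3.21e-05). A second OAS1 probe was above background on 3 sh-35 arrays and on 0 of the other 6, so it passed the filter through sh-35 alone. Its fitted change was 0.84 with sh-35 (adjusted p = 0.000215) and 0.008 with sh-34 (adjusted p = 0.966). The probe used gave 0.60 with sh-34, so the probes disagree for sh-34. The OAS1 call for sh-34 (adjusted p = 0.0251) was lost when no filter on dim probes was used (adjusted p = 0.0693) and when the mean of the gene's probes was taken (adjusted p = 0.0622).

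OAS2 had log2 signals of 8.25, 7.87 and 7.29 with sh-35 and 6.92, 6.97 and 7.12 with sh-34, against 6.53, 6.20 and 6.49 with scramble. Its groups did not overlap, with changes of 1.39 for sh-35 (adjusted p = 0.000145) and 0.59 for sh-34 (adjusted p = 0.0312). OAS3 had 9.05, 8.86 and 8.44 with sh-35 and 8.05, 8.01 and 7.96 with sh-34, against 8.05, 8.04 and 8.27 with scramble. Only its sh-35 arrays stood apart, by 0.66 against scramble (adjusted p = 0.00213) and by 0.78 against sh-34 (adjusted p = 0.000766). OASL, a related protein without synthetase activity, was above background on 2 arrays, both sh-35, and so was not tested. Its deposited signals were 117.0, 147.1 and 128.9 with sh-35 and 92.5, 70.5 and 73.4 with sh-34, against 89.4, 76.9 and 44.6 with scramble.

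MX1 encodes a dynamin-like GTPase that blocks incoming viral nucleocapsids, and its level was close to background throughout. Its log2 signals were 6.72, 6.70 and 6.49 with sh-35 and 6.81, 6.65 and 6.81 with sh-34, against 6.30, 5.98 and 6.43 with scramble. Every hairpin array was above every scramble array, yet the scramble arrays were all within background. MX1 was at least 1.08-fold higher with sh-34 than with scramble (limma adjusted p = 0.005). With sh-35, where 2 of the 3 arrays were above background, the adjusted p was 0.0171 and no lower bound over 1 could be given.

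ISG15 is a ubiquitin-like protein that is joined to other proteins after interferon. It had log2 signals of 9.25, 9.11 and 8.34 with sh-35 and 8.28, 8.18 and 7.97 with sh-34, against 8.18, 8.27 and 8.13 with scramble. The sh-35 arrays lay above the rest, with sh-35 replicate 3 closest to them. The log2 change with sh-35 was 0.71 (SE 0.19, adjusted p = 0.0107) against scramble, or 0.99 (adjusted p = 7.02e-05) without that replicate, and sh-34 differed from scramble by -0.05 (adjusted p = 0.872). HERC5, the main ligase that attaches ISG15, had 9.76, 9.31 and 9.23 with sh-35 and 8.81, 8.71 and 8.72 with sh-34, against 8.41, 8.21 and 8.15 with scramble. Its 3 groups did not overlap, with changes of 1.18 for sh-35 (adjusted p = 2.42e-05) and 0.49 for sh-34 (adjusted p = 0.0109). HERC6, its neighbour and relative, was higher with sh-35 by 0.30 against scramble (adjusted p = 0.0246) and by 0.39 against sh-34 (adjusted p = 0.00632).

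Outside the list of 39, UBA7 and UBE2L6 of the ISG15 pathway were named for their small p with sh-35, and were higher with each hairpin. TRIM25, which can also act as an ISG15 ligase, fell by 0.40 with sh-35 (adjusted p = 0.00175) and was at 0.10 with sh-34 (adjusted p = 0.351). UBA7, which activates ISG15, had log2 signals of 8.27, 8.33 and 8.38 with sh-35 and 7.91, 7.97 and 7.98 with sh-34, against 6.94, 6.99 and 6.83 with scramble. UBE2L6, which carries ISG15 to its ligase, had 11.87, 11.68 and 11.81 with sh-35 and 11.20, 11.35 and 11.28 with sh-34, against 10.86, 10.68 and 10.98 with scramble. For each gene the 3 groups were separate. UBA7 was higher by 1.41 with sh-35 (adjusted p = 1.97e-07) and by 1.03 with sh-34 (adjusted p = 2.76e-06), and UBE2L6 by 0.95 (adjusted p = 1.23e-05) and by 0.44 (adjusted p = 0.0039). In the authors' deposited table UBA7 has ratios of 2.45 for sh-35 and 1.85 for sh-34.

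IFI44 and its neighbour IFI44L encode related proteins of uncertain function. IFI44L had the largest fitted change of the list. Its deposited signals were 343.2, 402.5 and 279.2 with sh-35 and 73.1, 66.0 and 82.1 with sh-34, against 78.1, 59.6 and 61.7 with scramble. Only the sh-35 arrays were above background, by at least 3.02-fold over scramble (limma adjusted p = 1.06e-07) and at least 3.13-fold over sh-34 (adjusted p = 2.93e-07). IFI44 was measured in more arrays, with log2 signals of 9.16, 9.03 and 8.89 with sh-35 and 7.80, 7.83 and 8.03 with sh-34, against 7.62, 7.39 and 7.14 with scramble. Its groups did not overlap, at 1.64 with sh-35 (adjusted p = 1.52e-06) and 0.50 with sh-34 (adjusted p = 0.00783).

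IFI27 and TRIM22 were higher with sh-35 and lower with sh-34 than with scramble, and IFI6 was higher with sh-35. IFI27 and IFI6 are small hydrophobic proteins of a shared family, and TRIM22 is a ubiquitin ligase that restricts several viruses. IFI27 had log2 signals of 11.88, 11.89 and 11.31 with sh-35 and 9.39, 9.45 and 9.79 with sh-34, against 10.51, 10.50 and 10.89 with scramble. It was 2.08-fold higher with sh-35 than with scramble (adjusted p = 0.000426) and 2.13-fold lower with sh-34 than with scramble (adjusted p = 0.000478). The hairpins differed 4.43-fold, a log2 difference of 2.15 with a 95% interval of 1.78 to 2.52.

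TRIM22 had log2 signals of 9.52, 9.50 and 9.50 with sh-35 and 8.03, 8.45 and 8.04 with sh-34, against 9.01, 8.79 and 9.11 with scramble. Its groups were separate, 0.54 higher with sh-35 (adjusted p = 0.00371) and 0.80 lower with sh-34, which is 1.74-fold (adjusted p = 0.000368). The hairpins differed 2.52-fold, with a log2 interval of 1.07 to 1.59. IFI6 had 12.30, 12.41 and 11.85 with sh-35 and 11.34, 11.13 and 11.30 with sh-34, against 11.46, 11.56 and 11.71 with scramble. It was higher with sh-35 by 0.61 (adjusted p = 0.00349). With sh-34 its log2 change was -0.32, which did not pass (adjusted p = 0.0786) although those arrays lay wholly below the scramble arrays, and a second IFI6 probe gave -0.84 (adjusted p = 0.00332).

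**Figure D4:**
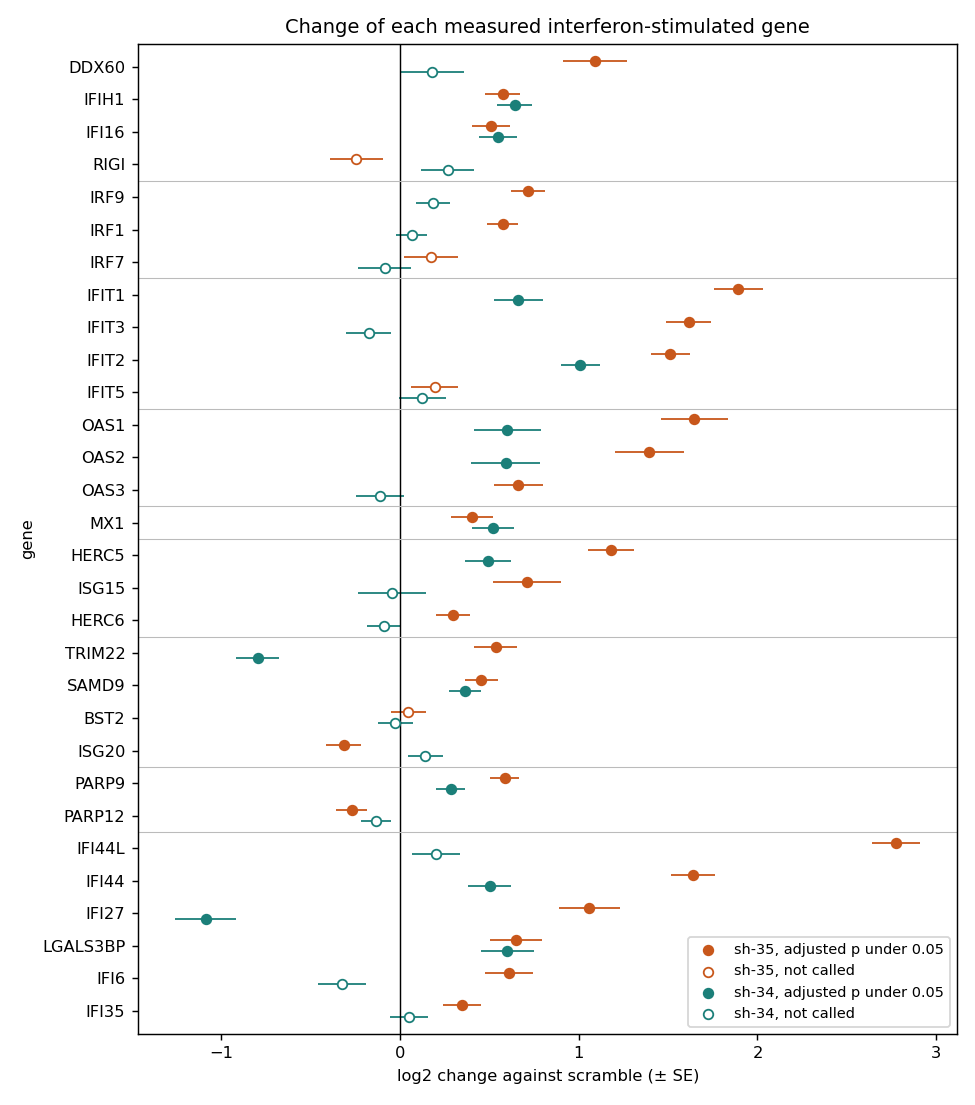
Log2 change against scramble, with bars of 1 SE, for the 30 measured interferon-stimulated genes grouped by role, sh-35 above sh-34 for each gene, filled where limma's adjusted p is under 0.05. IFI27 and TRIM22 lie right of 0 with sh-35 and left of 0 with sh-34.

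SAMD9 and LGALS3BP were called higher with each hairpin, and the difference between hairpins did not pass. SAMD9, a cytosolic restriction factor of poxviruses, had log2 signals of 10.37, 10.37 and 10.15 with sh-35 and 10.21, 10.30 and 10.11 with sh-34, against 9.94, 9.80 and 9.79 with scramble. LGALS3BP, a secreted glycoprotein that binds galectins, had 10.98, 10.84 and 10.82 with sh-35 and 10.54, 11.06 and 10.90 with sh-34, against 10.30, 9.95 and 10.45 with scramble. Neither gene's hairpin arrays overlapped the scramble arrays. SAMD9 was higher by 0.45 with sh-35 (adjusted p = 0.00193) and by 0.36 with sh-34 (adjusted p = 0.00891), and LGALS3BP by 0.65 (adjusted p = 0.004) and by 0.60 (adjusted p = 0.00755). The intervals of the difference between hairpins were -0.11 to 0.29 for SAMD9 and -0.27 to 0.37 for LGALS3BP.

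IFI35 and PARP9 were also called higher with sh-35. IFI35, which forms a complex with NMI, was higher with sh-35 by 0.35 (adjusted p = 0.0211) and differed by 0.05 with sh-34. BST2, the membrane tether of budding virus particles, passed no test, at 0.05 with sh-35 and -0.03 with sh-34. Its log2 signals were 9.46, 9.36 and 9.27 with sh-35 and 9.32, 9.26 and 9.30 with sh-34, against 9.13, 9.34 and 9.49 with scramble, so the groups overlapped. PARP9, an inactive member of the ADP-ribosyltransferase family that works with the ligase DTX3L, was higher by 0.59 with sh-35 (adjusted p = 0.000159) and by 0.28 with sh-34 (adjusted p = 0.018). A second PARP9 probe gave 0.37 (adjusted p = 0.073) and -0.05 (adjusted p = 0.843), so the probes disagree for sh-34.

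The 2 members called lower with sh-35 were changed little. ISG20, an exonuclease of RNA, had log2 signals of 7.54, 7.86 and 7.74 with sh-35 and 8.21, 8.21 and 8.09 with sh-34, against 8.15, 7.94 and 7.99 with scramble. It fell by 0.31 with sh-35 against scramble (adjusted p = 0.0234) and by 0.45 against sh-34 (adjusted p = 0.00319). PARP12, an ADP-ribosyltransferase with zinc fingers that bind RNA, had 9.25, 9.19 and 9.30 with sh-35 and 9.50, 9.37 and 9.28 with sh-34, against 9.46, 9.63 and 9.46 with scramble. It fell by 0.27 with sh-35 (adjusted p = 0.025).

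Above-background signal was absent for 6 of the 37 genes with a probe. MX2, RSAD2, XAF1, SAMD9L, CMPK2 and EPSTI1 reached deposited signals of at most 53.2, 72.3, 58.6, 117.9, 49.9 and 73.7 on any array. The viral inhibitor RSAD2 and its neighbour CMPK2, which are often among the strongest responders to interferon, were thus not above background on any sh-35 array. A level under background gives only an upper bound and does not show that a gene was silent.

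The sh-35 arrays varied among themselves more in some members than in others. Replicate 3 was the lowest of the sh-35 arrays in 19 of the 30 members, beside 34.1% of all genes. In IFI27 it stood at 11.31 beside 11.88 and 11.89, and in OAS2 at 7.29 beside 8.25 and 7.87. Without it, 24 members were higher and 2 lower with sh-35 than with scramble, the same counts as with it, and their median change was 0.65. In that fit 3327 of all 8931 genes were called, 49.4% of them higher, and the median over all genes was -0.01.

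**Figure D5:**
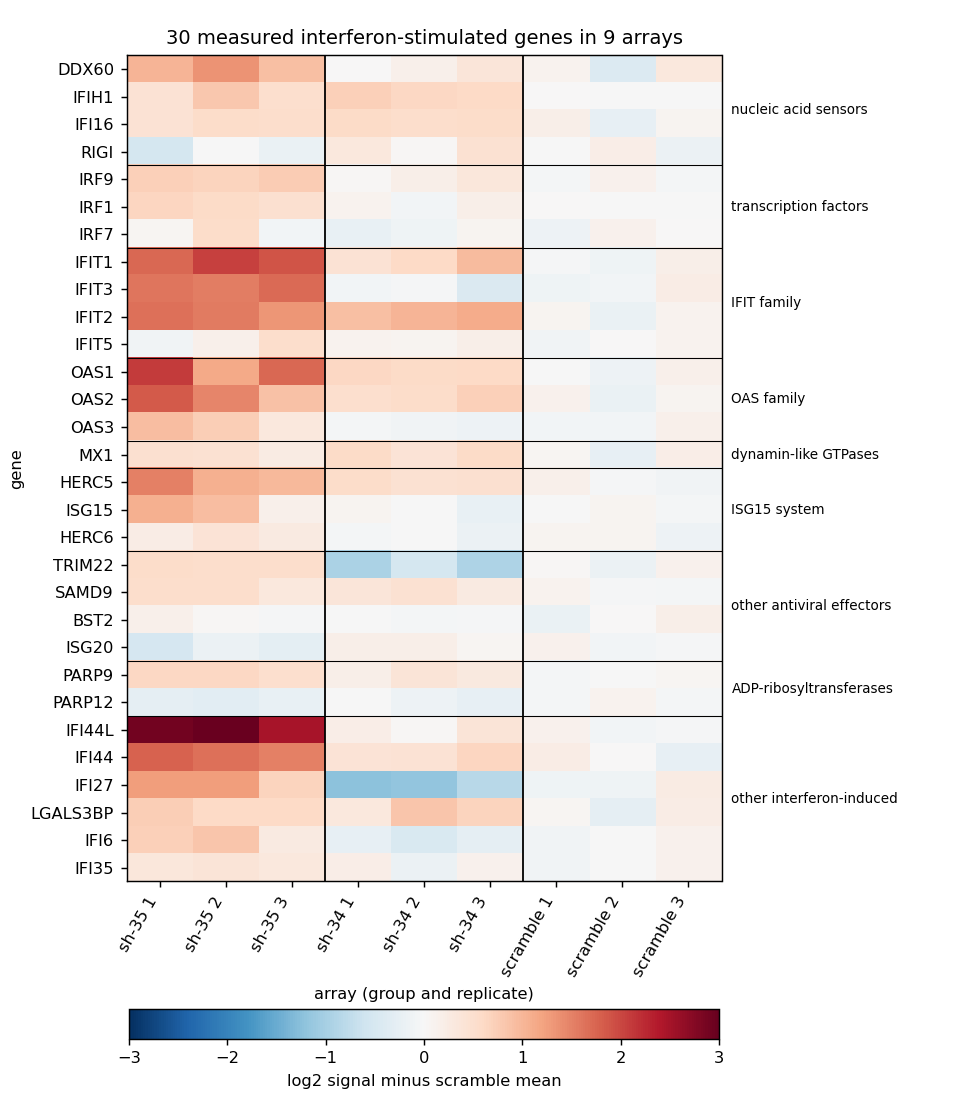
Log2 signal less the scramble mean for the 30 measured interferon-stimulated genes (rows, by role) on the 9 arrays (columns, sh-35, sh-34 and scramble from left to right). Red is above and blue below the scramble mean; IFI44L is the most raised row on the sh-35 arrays, and IFI27 is lowest on the sh-34 arrays.

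Other genes known to respond to interferon, taken from a second list of 45, gave a different count. Of the 29 measured, 10 were higher and 5 lower with sh-35 (34.5% and 17.2%, beside 20.4% and 21.4% of all genes). With sh-34, 14 were higher and 1 lower (48.3% and 3.45%, beside 19% and 18.5%). The medians were 0.24 with sh-35 and 0.25 with sh-34. Between hairpins, 4 were higher and 7 lower with sh-35 (13.8% and 24.1%, beside 20.7% and 22% of all genes), with a median of -0.04. GBP2, a guanylate-binding GTPase, was higher by 0.88 with sh-35 (adjusted p = 4.04e-05) and by 0.85 with sh-34 (adjusted p = 7.96e-05). RNF213, a large ubiquitin ligase, was higher by 0.89 (adjusted p = 8.6e-05) and by 0.99 (adjusted p = 5.67e-05). LY6E, a membrane protein with a role in virus entry, was higher by 0.55 (adjusted p = 0.00108) and by 0.49 (adjusted p = 0.00275). GBP1, a relative of GBP2, ran the other way, at 7.89, 7.78 and 7.84 with sh-35 and 8.49, 8.35 and 8.61 with sh-34, against 8.76, 8.74 and 8.64 with scramble. It fell by 0.88 with sh-35 (adjusted p = 1.03e-05), and with sh-34 its change was -0.23 (adjusted p = 0.0546).

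Of 8 negative regulators measured, 1 was higher and 2 lower with sh-35 (12.5% and 25%, beside 20.4% and 21.4% of all genes), and 1 was higher and 3 lower with sh-34 (12.5% and 37.5%, beside 19% and 18.5%). The phosphatases PTPN1 and PTPN11, which act on JAK-STAT signalling, were lower with each hairpin, while the phosphatase PTPN2 was higher with each. PTPN1 fell by 0.29 with sh-35 (adjusted p = 0.00761) and by 0.33 with sh-34 (adjusted p = 0.00444), and PTPN11 by 0.22 (adjusted p = 0.0359) and by 0.37 (adjusted p = 0.00306). PTPN2 was higher by 0.34 with sh-35 (adjusted p = 0.0302) and by 0.44 with sh-34 (adjusted p = 0.00893). Its sh-35 call was lost with median scaling (0.11) and its sh-34 call with the mean of its probes (0.355). PTPN6 did not pass against scramble with sh-35 (adjusted p = 0.129) or sh-34 (0.06). TRIM21, a ubiquitin ligase and antibody receptor, had log2 signals of 8.26, 8.32 and 8.25 with sh-35 and 7.56, 7.36 and 7.19 with sh-34, against 8.08, 8.28 and 8.38 with scramble, and fell by 0.87 with sh-34 (adjusted p = 8.88e-05). A separate list of RNA and DNA sensors had 5 genes measured, TLR3 among them. With each hairpin, 1 was higher and 2 lower (20% and 40%), beside 20.4% and 21.4% of all genes with sh-35 and 19% and 18.5% with sh-34. Of these sensors, EIF2AK2, the kinase PKR that halts translation on double-stranded RNA, had log2 signals of 11.05, 11.03 and 11.07 with sh-35 and 10.53, 10.19 and 10.39 with sh-34, against 10.90, 10.68 and 10.87 with scramble. It fell by 0.45 with sh-34 (adjusted p = 0.00428). ADAR, which edits double-stranded RNA, fell by 0.54 with sh-35 (adjusted p = 0.000268). ZBP1 fell by 0.28 with sh-35 (adjusted p = 0.0484) and by 0.48 with sh-34 (adjusted p = 0.00346). Its sh-35 call was lost with cyclic loess (0.0672).

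Members were spread over 17 chromosomes, and 17 of the 39 stood next to another member, in 8 runs of adjacent protein-coding genes. Neighbours could differ: IFIT2 was higher with sh-34 than with scramble by 1.01, whereas the adjacent IFIT3 did not pass (-0.18, adjusted p = 0.3). The OAS1, OAS3 and OAS2 run was called higher throughout with sh-35.

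Some calls were lost when 1 array was left out, which also leaves fewer samples. With sh-35 against scramble, HERC6 did not pass without scramble replicate 3 or sh-35 replicate 2 (adjusted p = 0.103 and 0.0907), nor ISG20 without scramble replicate 1 or sh-35 replicate 1 (0.0872 and 0.0927). IFI35 did not pass without scramble replicate 1 or 2 or sh-35 replicate 2 (0.0751, 0.056 and 0.0593). MX1 and PARP12 did not pass without scramble replicate 2 or sh-35 replicate 1 or 2 (0.0552 to 0.0657 and 0.0535 to 0.0931). With sh-34 against scramble, PARP9 did not pass without scramble replicate 1 or sh-34 replicate 2 (0.0609 and 0.0717). The sh-34 calls of OAS1 and OAS2 were each lost in 5 of the 6 fits that left out a compared array, with changes of 0.53 to 0.62 for OAS1 and 0.49 to 0.63 for OAS2 in those fits.

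Between the hairpins, RIGI did not pass without sh-34 replicate 3 or sh-35 replicate 1 (0.0654 and 0.0646). The IFI35 difference of 0.29 (adjusted p = 0.0432) was lost with a replicate block (0.0533), in the fit of the 2 groups alone (0.0571) and in 6 of the 9 fits that left out an array, and was 0.17 without sh-34 replicate 2 (adjusted p = 0.171). The IFNAR1, MYD88, JAK1, TYK2, PTPN2, PTPN11 and ZBP1 calls against scramble were also lost for at least 1 hairpin when an array was left out. Without scramble replicate 2, MYD88 was at -0.21 with sh-35 and -0.19 with sh-34.

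The markers of other cell types that were measured moved in part with the same groups. DCN, the one fibroblast marker measured, was higher with sh-35 by 0.53 (adjusted p = 0.00197) and fell by 0.37 with sh-34 (adjusted p = 0.0184). The summed signal of the 6 fibroblast genes was 7461 to 7688.7 with sh-35 and 3763.9 to 4724.5 with sh-34, against 4932.1 to 6616.5 with scramble. COL1A2, COL3A1, LUM and PDGFRB were above background on no array. Of the leukocyte markers, CD68 and LAPTM5 were measured. CD68 was at 0.10 with sh-35 (adjusted p = 0.34) and fell by 0.54 with sh-34 (adjusted p = 0.000285), and the hairpins differed by 0.64 (adjusted p = 6.23e-05). LAPTM5 was above background on 1 sh-35, 3 sh-34 and 0 scramble arrays. It passed with sh-35, with no bound over 1 (adjusted p = 3e-04), and was at least 1.39-fold higher with sh-34 than with scramble (limma adjusted p = 2.85e-06). The summed signal of the leukocyte genes was 1794.3 to 1990.5 with sh-35 and 1406.6 to 1484.5 with sh-34, against 1601.4 to 1843.7 with scramble. TCF4, the one plasmacytoid dendritic cell marker measured, was at 0.64 with sh-35 (adjusted p = 0.00148), and that list summed to 345.57 to 371.93 with sh-35 and 293.6 to 311.43 with sh-34, against 275.49 to 314.31 with scramble. PECAM1, the one endothelial marker measured, passed no test at 0.26 with sh-35 (adjusted p = 0.0765) and 0.09 with sh-34 (adjusted p = 0.55), and that list summed to 271.06 to 293.03 with sh-35 and 232.34 to 268.17 with sh-34, against 206.04 to 255.88 with scramble. The summed signals here, and those of the basal markers, are deposited signals without background correction or normalisation. They take in every probe of a list, also probes never above background, so background is part of each sum. The part of these markers, and of the basal markers, in the results was not tested. In bulk RNA fewer cells of a type cannot be told apart from less RNA per cell.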

How the data were processed

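Total RNA of 9 MCF10A samples, 3 each with sh-35, sh-34 and scramble, was labelled with biotin and hybridised to Illumina bead arrays, per the labels. BeadStudio and Partek are named, without versions, by the submitters' processing notes. Per the file headers, the deposited signals are an intensity and a detection p-value for 48803 probes. The authors' series matrix gives log2 values, which are those signals centred per probe. The authors' deposited table of 358 probes gives a ratio against scramble and its p-value for each hairpin. Other columns of that table were not used. No genome build is named for the array, so coordinates are RefSeq's.

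Probes were named from the platform annotation: 28098 had 1 symbol, 13 several, and 20692 were not listed. Signals were background corrected with limma 3.58.1 (R 4.3.3) by the normal-exponential model using the detection p-values (offset 16), and quantile normalised. The 12866 probes detected at p under 0.01 on 3 or more arrays were kept, and the brightest probe stood for each of 8931 genes. One limma model with 3 groups was fitted (6 residual and 5.42 prior degrees of freedom), with Benjamini-Hochberg adjustment over all genes and an adjusted p under 0.05 as the call. A gene within background on every array of a group has a lower bound in place of a fold, against the lowest signal called above background. The fits were tested on simulated data. The number of arrays limits precision.

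Replicate numbers were not used to pair samples: deviations from the group means of samples with equal numbers correlated by -0.024 to 0.0529. The members and the other gene lists were chosen with earlier results of these data known. Named genes were every member, RND1, the receptors, transducers, sensors and inhibitors called in any comparison (not all are given), and the 6 other interferon-induced genes with the smallest p for sh-35. STING1 and TRIM25 were named after their values were seen. Alternatives covered cyclic loess and median scaling, no background correction, an offset of 50, the matrix values, other filters, mean of probes, 2-group fits, limma trend, a replicate block and leaving out each array; 1, limited to members above background on a scramble array, was chosen after seeing the data.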

Additional observations from a re-analysis of the deposited data

Results flagged for a closer look

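Of the 30 measured interferon-stimulated genes, 21 differed between the 2 hairpins by the test of sh-35 minus sh-34 itself (limma adjusted p under 0.05). In the same test 42.7% of all 8931 genes were called, 20.7% higher and 22% lower. The fitted log2 difference was 2.147 for IFI27, 1.792 for IFIT3, 1.333 for TRIM22, 1.231 for IFIT1 and 1.14 for IFI44. It was 1.047 for OAS1, 0.9331 for IFI6, 0.9109 for DDX60, 0.8035 for OAS2, 0.775 for OAS3, 0.754 for ISG15 and 0.6873 for HERC5. It was 0.5336 for IRF9, 0.509 for IRF1, 0.5036 for IFIT2, 0.3861 for HERC6, 0.302 for PARP9 and 0.2932 for IFI35. The IFI35 call did not hold with a replicate block (adjusted p = 0.0533), and the value was 0.1746 without sh-34 replicate 2. For IFI44L the fitted value was 2.575, and as its sh-34 arrays were within background the bound is at least 3.13-fold. The difference was -0.4549 for ISG20 and -0.5116 for RIGI, which were lower with sh-35.

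Some probes not used in the comparisons were above background on sh-35 arrays and on no sh-34 or scramble array. A further probe of OAS1 was above background on 3 sh-35 arrays and another OAS1 probe on 2, and the OASL probe on 2. Groups of 3 samples were not tested for a single sample that stands apart.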

How the results depend on the processing

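No alternative moved the count of called members by over 1.5 times. Leaving out each array in turn gave 22 to 26 called members for sh-35 against scramble, 11 to 15 for sh-34 against scramble and 19 to 21 for sh-35 against sh-34. The number of all 8931 genes called in those fits was 3231 to 3677, 2758 to 3370 and 3227 to 3821, in that order. With a replicate block, the counts of called members were 26, 14 and 20, beside 3688, 3295 and 3770 of all genes. The replicate numbers do not pair the samples. Under the 11 other settings, each member's outcome, called or not called, was compared with the main fit. It was unchanged 312 times for sh-35, 309 times for sh-34 and 319 times between hairpins, which counts members called in neither fit. Calls were lost 11, 8 and 4 times and gained 0, 6 and 0 times, in that order. IFI6, lower with sh-34, passed with the mean of its probes (adjusted p = 0.00952), the series matrix (0.0103), limma trend (0.00958) and median scaling (0.0173). With sh-35, HERC6 (adjusted p = 0.0899) and ISG20 (0.0936) did not pass with median scaling, nor ISG20 (0.187) and PARP12 (0.0952) with matrix values. MX1 with sh-35 did not pass with limma trend (adjusted p = 0.0802), and PARP9 (adjusted p = 0.153) and SAMD9 (adjusted p = 0.0866) with sh-34 did not pass with the matrix. The difference of PTPN2, a phosphatase of the pathway, between sh-35 and sh-34 turned to 0.2807 with the mean of its probes; the cause was not tested. The share of higher among all called genes was 50.6% for sh-34 and 48.8% for sh-35, against 39.4% and 40.9% with median scaling, and for sh-35 minus sh-34 it was 48.6%, against 60.4% with the series matrix. The members' median with sh-34 was 0.18, and 0.07 with detection required on all 9 arrays. Of the members called with sh-34, 85.7% were higher (12 of 14), against 76.9% with median scaling (10 of 13). The causes of these changes were not tested. Signals near background limit MX1, RIGI, OAS1, MAVS and the 7 genes not measured.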
